A study of Homo sapiens with 23 samples.

Results

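A module of 49 genes that carry out or control mitosis was followed in 4 human multiple myeloma cell lines, all found by symbol in the count table of 28395 genes and all tested among 16468 genes. The genes fell into 10 classes: cyclins and CDC25 phosphatases (5), mitotic kinases (5), the spindle checkpoint (5), anaphase (4), the kinetochore and centromere (9), kinesins (6), the chromosomal passenger complex and cytokinesis (6), the spindle (2), condensin with topoisomerase (6) and 1 transcription factor. H929, MM1S, OPM2 and RPMI-8226 are established lines of malignant plasma cells in culture, here made to carry Cas9. In each line a guide RNA against IRF4, a transcription factor that plasma cells depend on, was compared with cells named EV in the labels, whose meaning is not given there. Whether EV cells carry a guide that makes Cas9 cut is thus not known here. The IRF4 guide was induced by doxycycline for 48 hours, and the EV cells had the drug too. Each group had 3 RNA libraries except the MM1S EV group, which had 2 (replicates 2 and 3), 23 in all. The labels did not say whether the replicates were separate cultures, so p-values measured the spread between these libraries, which may be technical. A single IRF4 guide and a single time point were measured, on whole cultures, so a smaller share of cells in mitosis and less mRNA per mitotic cell cannot be told apart.

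Cells enter mitosis when cyclin B binds the kinase CDK1 and CDC25 phosphatases remove its inhibitory phosphates. Kinetochores built on centromeres then attach chromosomes to spindle microtubules, kinesin motors order the spindle, and the checkpoint proteins hold back CDC20 and the anaphase-promoting complex until every chromosome is attached. Once it is released, that complex marks securin and cyclin B for destruction, separase cuts cohesin, and the passenger complex and its partners direct cytokinesis. Most of these genes are transcribed late in the cell cycle, under the MuvB complex with B-MYB or FOXM1, and their mRNA level is widely read as a sign of proliferation.

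Levels are CPM, reads of a gene relative to the library size after edgeR's TMM scaling, and a change is the log2 ratio of IRF4 guide to EV, ± its standard error. A gene was called at a Benjamini-Hochberg adjusted p under 0.05 over all genes tested, by edgeR's quasi-likelihood test, and only called genes are said to rise or fall. IRF4 itself had 579, 773 and 855 CPM with the IRF4 guide in H929, against 2181, 2219 and 2196 CPM with EV. In MM1S it had 279, 287 and 228 CPM with the IRF4 guide and 724 and 641 CPM with EV. Every library with the guide lay below every EV library in both lines. OPM2 had IRF4 at 890.2, 1331 and 897 CPM with the guide, against 1570.0, 2031 and 1319 CPM with EV, and here 1 guide library passed the lowest EV library. RPMI-8226 had 193, 250.1 and 187 CPM with the IRF4 guide and 482, 461 and 409 CPM with EV, with no overlap. IRF4 fell in each line, its change being -1.58 ± 0.18 (H929, adjusted p = 7.83e-07), -1.36 ± 0.20 (MM1S, adjusted p = 3.96e-05), -0.66 ± 0.18 (OPM2, adjusted p = 0.00675) and -1.10 ± 0.18 (RPMI-8226, adjusted p = 1.73e-04) by edgeR. Library totals ran from 6907390 to 28486960 counts. Of 10 plasma cell markers 9 were tested and 8 were called lower on the average of the lines (25.1% of all genes), while JCHAIN was called higher (32.6% of all genes). The 8 include IRF4, the target of the guide. By line, 6 of the 9 were lower and 1 higher in H929, and 4 were lower and 0 higher in MM1S. OPM2 had 8 lower and 0 higher, and RPMI-8226 had 4 lower and 2 higher. TNFRSF17, the receptor BCMA, had 303 to 357 CPM with the IRF4 guide in H929, against 855 to 908 CPM with EV. JCHAIN had 12190.0 to 13020.0 CPM with the IRF4 guide there, against 6662 to 8552 CPM with EV. The summed level of the 10 markers, IRF4 itself among them, was 17460.0 to 18600.0 CPM with the IRF4 guide and 15160.0 to 17150.0 CPM with EV in H929. In MM1S it was 7228 to 7800.0 CPM with the IRF4 guide and 7418 to 7618 CPM with EV, where CD27 was at 0. In OPM2 it was 9610.0 to 10560.0 CPM with the IRF4 guide and 11510.0 to 13160.0 CPM with EV. In RPMI-8226 it was 4372 to 5481 CPM with the IRF4 guide and 3929 to 4318 CPM with EV. Of the other cell types looked for, 6 T and NK cell markers summed to 112 to 126 CPM with the IRF4 guide in H929, against 13.5 to 15.7 CPM with EV, most of it CD3E (99.8 to 119 CPM with the IRF4 guide and 13.1 to 15.1 CPM with EV), while CD8A and KLRD1 were at or near 0 in that line. The sum of 6 myeloid markers was also higher with the IRF4 guide, at 5.80 to 6.64 against 0.140 to 0.375 CPM with EV in H929 and at 8.99 to 16.3 against 2.50 to 3.29 CPM with EV in RPMI-8226. The myeloid sum was 8.18 to 12.9 CPM with the IRF4 guide and 1.32 to 2.34 CPM with EV in MM1S, and 0.623 to 1.07 against 0.119 to 0.176 CPM in OPM2. With the IRF4 guide most of it was ITGAM in MM1S (7.87 to 12.9 CPM) and RPMI-8226 (6.5 to 14.1 CPM). CD14 overlapped in RPMI-8226 (1.42 to 1.82 CPM with the IRF4 guide, 1.09 to 1.97 with EV), and FCGR3A was at or near 0 in every line. The T and NK sum was also higher with the IRF4 guide in MM1S (8.09 to 10.8 CPM, against 3.68 to 4.18 with EV), OPM2 (1.91 to 2.87 CPM, against 0 to 0.223 with EV) and RPMI-8226 (5.56 to 8.03 CPM, against 2.08 to 4.77 with EV). With the IRF4 guide it was CD3E alone in MM1S, mostly CD3E in OPM2 (1.41 to 2.74 CPM) and mostly CD8A in RPMI-8226 (4.71 to 7.22 CPM). Erythroid markers summed to at most 3.27 CPM. Stromal and epithelial markers, mostly EPCAM, summed to 82.2 to 98.1 CPM with the IRF4 guide and 113 to 130.3 CPM with EV in RPMI-8226, and to at most 1.45 CPM elsewhere. The part of these markers in the results on mitosis genes was not tested.

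With the IRF4 guide all of the mitosis genes fell in H929 and most fell in MM1S, while in RPMI-8226 few fell, and the share that rose was near that of all genes. In H929 all 49 were called lower, where 26.1% of all tested genes were, and the median change was -0.91, against 0.10 for all genes. MM1S had 38 of 49 lower (15.2% of all genes), with a median of -0.53, against 0.07 for all genes. OPM2 had 28 of 49 lower (20.2% of all genes), with a median of -0.26, against 0.03 for all genes. In RPMI-8226, 2 of 49 were lower (14.7% of all genes) and 9, or 18.4%, were higher (19.2% of all genes), with a median of 0.09, against 0.04 for all genes. None was called higher in H929, MM1S or OPM2, where 32.9%, 19.4% and 23.3% of all genes were. On the average of the 4 lines 45 of 49 were lower (25.1% of all genes), and CCNB2, NEK2, UBE2C and KIF18A were not called. UBE2C was nearly absent from RPMI-8226 (standard error 0.62 there), so its average change of -0.27 ± 0.17 is left undecided. Called lower in all 4 lines were AURKB and MAD2L1, 2 of 49 where 3.83% of all genes were, and 23 of 49 were called lower in at least 3 lines, against 12.6% of all genes. These 23 fell in each of H929, MM1S and OPM2, as 8.14% of all genes did. Without regard to calls, the change was below 0 for 49 members (H929), 48 (MM1S), 44 (OPM2) and 13 (RPMI-8226), against 43.2%, 39.8%, 44.3% and 43.7% of all genes. By libraries, the IRF4 guide group lay wholly below EV for 49 members (H929), 44 (MM1S), 26 (OPM2) and 4 (RPMI-8226), against 27.7%, 24.0%, 23.9% and 18.4% of all genes. It lay wholly above EV for 17 members in RPMI-8226, against 24.8% of all genes. In OPM2 replicate numbers paired the libraries (those of the same number deviated together), and with the number as a block 38 members were called lower there in place of 28. The share of all genes called with the block is not given here. The 38, and the block count for RPMI-8226 below, are thus not set against all genes. The median change of the members in OPM2 was -0.26 both with the block and without it. Without the block the count lower in OPM2 was 16 when EV replicate 1 was left out, and over the libraries of all lines left out in turn it ran from 16 to 34. Of the 28, 15 were called without each OPM2 library in turn, and leaving out EV replicate 1 ended the calls of AURKA, BUB1B, BUB3, CDC25B, CDK1, CENPA, INCENP, KIF23, NUF2, PLK1, PTTG1 and SPC25. FOXM1 is the other of the 13, lost without IRF4 guide replicate 1. In MM1S 32 of the 38 were called without each MM1S library, the others being AURKA, BUB1B, CCNB1, HMMR, KIF18A and KIF2C, each lost without EV replicate 3. The count in OPM2 was 14 with library totals in place of the scaling factors, 19 with upper quartile factors and 11 on the deposited log2 RPKM values. AURKA, BUB1B, BUB3 and CDC25B were among the members that lost their OPM2 call under each of these. Of the settings that kept every library, only the replicate blocks gave more than 28, and the others gave 11 to 28. In RPMI-8226 the count higher was 5 when EV replicate 1, EV replicate 2 or IRF4 guide replicate 3 was left out, and 14 with the number as a block within each line. The count lower was 1 when any 1 of its 3 EV libraries, IRF4 guide replicate 1 or IRF4 guide replicate 3 was left out.

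**Figure D1:**
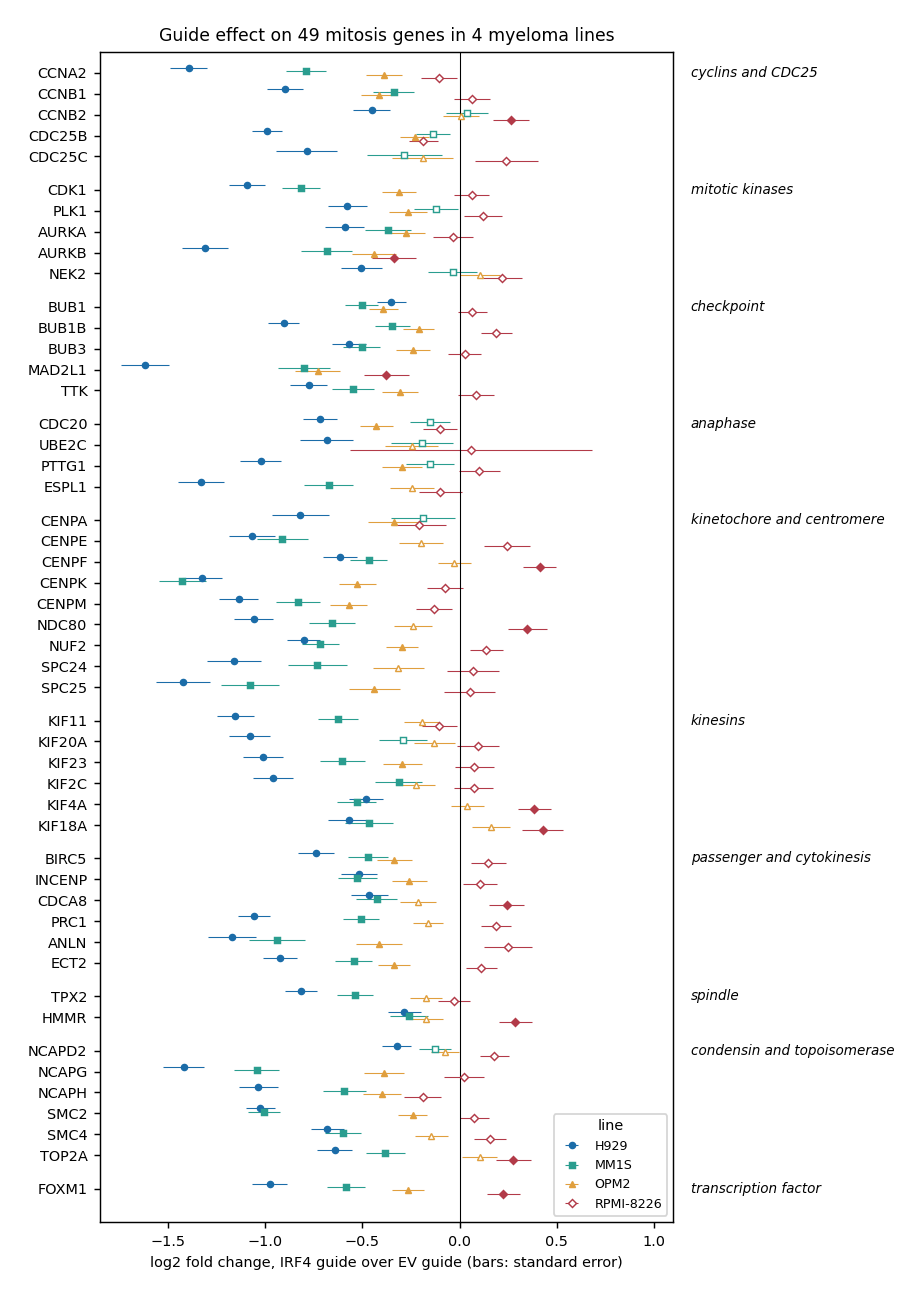
Log2 fold change of the IRF4 guide over EV (horizontal axis, bars: standard error) for the 49 mitosis genes by class, in H929 (circles), MM1S (squares), OPM2 (triangles) and RPMI-8226 (diamonds). Filled symbols were called at an adjusted p under 0.05 and open ones were not: all 49 are filled for H929, 38 for MM1S, 28 for OPM2 and 11 for RPMI-8226, where 9 of them lie right of 0.

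The order of the lines was the same for most members. For 37 of 49 the change was lowest in H929, next in MM1S, then OPM2, and highest in RPMI-8226, an order that 7.06% of all tested genes had. RPMI-8226 stood above each other line for 47 of 49 (25.0% of all genes), and H929 below each other line for 45 of 49 (30.0% of all genes). The mRNA of IRF4 itself did not have this order, its log2 ratio being nearest to 0 in OPM2. IRF4 protein was not measured, so the loss of working IRF4 in each line is not known here. An edgeR F test with 3 degrees of freedom called the difference between the lines for 48 of 49 members, against 48.0% of all genes. The exception was UBE2C (adjusted p = 0.139), which was nearly absent from RPMI-8226. Its change there was 0.06 ± 0.62, too uncertain for this test or the RPMI-8226 difference below to decide. The change in RPMI-8226 minus the mean of the other lines was called above 0 for 47 of 49 (12.6% of all genes), with a median difference of 0.63, and UBE2C and CENPA were not called. Earlier results of these data had put RPMI-8226 apart, so this contrast is not independent of them. OPM2 minus the mean of H929 and MM1S was called above 0 for 33 of 49 (8.91% of all genes) and below 0 for none (8.53% of all genes), with a median of 0.46. H929 minus MM1S was called below 0 for 20 of 49 (13.6% of all genes), with a median of -0.38, and no member was called the other way in any of these differences. Averaged over the 49 genes, the log2 CPM of a library, taken relative to the EV mean of its line, was -0.84, -1.04 and -0.78 with the IRF4 guide in H929 and 0.05, 0.06 and -0.11 with EV. In MM1S it was -0.45, -0.50 and -0.66 with the IRF4 guide, against -0.02 and 0.02 with EV. OPM2 had -0.21, -0.35 and -0.19 with the IRF4 guide, against 0.13, -0.15 and 0.02 with EV, and its EV replicates spread more widely than those of any other line. RPMI-8226 had 0.04, 0.14 and 0.06 with the IRF4 guide, against -0.05, 0.05 and 0.00 with EV, where 1 EV library reached into the guide group.

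**Figure D2:**
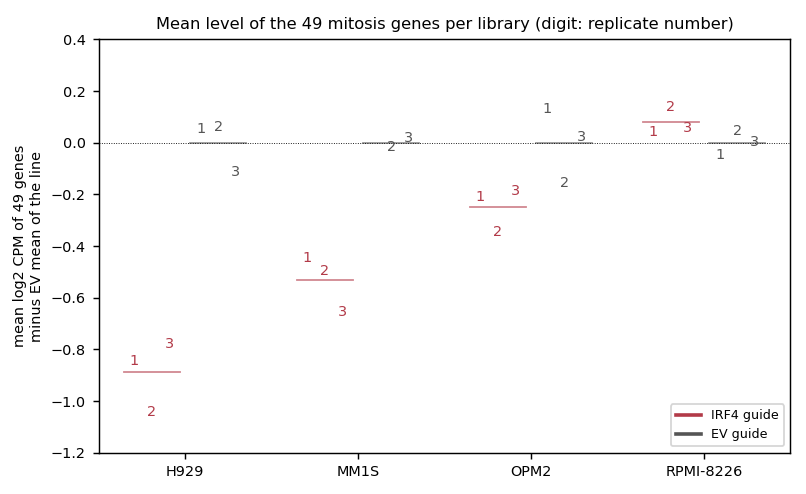
Mean log2 CPM of the 49 mitosis genes in each library minus the EV mean of its line (vertical axis), with the IRF4 guide left of EV in each line. Digits are replicate numbers and lines the group means: the IRF4 guide libraries lie at -1.04 to -0.78 in H929 and at 0.04 to 0.14 in RPMI-8226.

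The promoters of 41 members are in RefSeq (GRCh38.p14) as windows of 250 bases before to 50 bases after the start of transcription, and AURKA, BUB3, TTK, UBE2C, CENPM, BIRC5, TPX2 and FOXM1 have no entry in the table used. The letters TTTGAA or TTCGAA, the core of the cell cycle homology region (CHR) that MuvB complexes bind, stood on either strand in 30 of 41 members (73.2%), against 19.5% of 27305 genes. For the motifs, all genes are these 27305 with a promoter, tested for expression here or not. CCAAT, the box bound by NF-Y, stood on either strand in 32 of 41 (78.0%), against 39.7% of all genes, and both motifs in 23 (56.1%), against 7.85%. At least 2 CCAAT boxes stood in 20 of 41 members (48.8%), against 12.9% of all genes. The first base of a match lay at a median of -28 from the start for the CHR letters and -78 for CCAAT, and 1 pair of matches of the 2 motifs shared bases. The median change on the average of the lines was -0.37 for the 30 members with CHR letters and -0.48 for the 11 without. The 250 bases before the start are shown for 6 members whose levels are described here, 3 that fell in at least 3 lines or on the average (MAD2L1, CCNB1 and PLK1) and 3 that rose in RPMI-8226 (CCNB2, CENPF and KIF4A), 5′ to 3′ on the gene's strand with CHR and CCAAT letters in capitals. They lie at chr4:120066849-120067098 (minus strand) for MAD2L1, chr5:69166900-69167149 (plus strand) for CCNB1, chr16:23678639-23678888 (plus strand) for PLK1, chr15:59104896-59105145 (plus strand) for CCNB2, chr1:214602945-214603194 (plus strand) for CENPF and chrX:70289854-70290103 (plus strand) for KIF4A.
MAD2L1: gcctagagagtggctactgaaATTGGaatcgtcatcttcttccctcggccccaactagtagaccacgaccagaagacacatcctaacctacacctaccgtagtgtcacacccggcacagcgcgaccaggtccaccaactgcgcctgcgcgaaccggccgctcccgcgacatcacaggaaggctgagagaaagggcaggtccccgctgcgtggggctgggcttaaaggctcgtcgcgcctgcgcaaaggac
CCNB1: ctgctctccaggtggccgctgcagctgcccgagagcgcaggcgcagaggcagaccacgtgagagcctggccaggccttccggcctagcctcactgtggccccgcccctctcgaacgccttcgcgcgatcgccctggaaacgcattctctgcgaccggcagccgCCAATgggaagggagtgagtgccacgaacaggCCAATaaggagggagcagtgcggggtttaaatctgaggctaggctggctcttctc
PLK1: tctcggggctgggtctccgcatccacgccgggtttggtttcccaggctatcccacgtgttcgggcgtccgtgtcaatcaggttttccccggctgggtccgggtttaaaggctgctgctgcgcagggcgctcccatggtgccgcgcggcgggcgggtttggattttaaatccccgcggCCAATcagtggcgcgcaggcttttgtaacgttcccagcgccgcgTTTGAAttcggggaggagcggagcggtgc
CCNB2: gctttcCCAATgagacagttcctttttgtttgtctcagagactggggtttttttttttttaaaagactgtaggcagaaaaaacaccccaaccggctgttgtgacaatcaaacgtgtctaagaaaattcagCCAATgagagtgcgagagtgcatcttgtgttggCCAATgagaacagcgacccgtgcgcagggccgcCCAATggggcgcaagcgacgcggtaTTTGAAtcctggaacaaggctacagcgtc
CENPF: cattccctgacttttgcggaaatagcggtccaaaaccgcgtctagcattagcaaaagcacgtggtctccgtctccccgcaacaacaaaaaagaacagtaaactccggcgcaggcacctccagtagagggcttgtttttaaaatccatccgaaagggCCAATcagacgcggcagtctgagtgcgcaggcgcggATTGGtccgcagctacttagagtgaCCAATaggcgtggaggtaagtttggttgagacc
KIF4A: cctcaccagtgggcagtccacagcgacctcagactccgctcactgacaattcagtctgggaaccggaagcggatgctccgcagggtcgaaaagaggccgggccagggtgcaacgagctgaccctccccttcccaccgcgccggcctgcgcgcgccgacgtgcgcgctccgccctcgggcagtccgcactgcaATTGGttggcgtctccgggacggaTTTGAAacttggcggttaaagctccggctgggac

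CCNB2 holds 4 CCAAT boxes, at 244, 120, 87 and 54 bases before the start, with TTTGAA 29 bases before it. PLK1 has the same TTTGAA at 29 bases and 1 CCAAT at 73, and KIF4A has TTTGAA at 34 and 1 CCAAT on the other strand at 58. CENPF holds 3 CCAAT boxes at 94, 58 (on the other strand) and 33 bases, and CCNB1 holds 2 at 87 and 55. Neither has CHR letters in the stretch shown. In MAD2L1 the stretch shown has 1 CCAAT on the other strand at 229 bases and no CHR letters. After the start, within the window searched, CHR letters lie at 40 bases in CENPF and at 24 bases in MAD2L1. CENPF also has a CCAAT match at 12 bases after the start. These are matches of letters, and no binding was measured.

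Among cyclins and CDC25 phosphatases, 5 of 5 fell in H929, 2 in MM1S and 3 in OPM2, and in RPMI-8226 none fell and CCNB2 rose. CCNA2, cyclin A2 (chromosome 4, 121816444 to 121823883), which partners CDK2 in S phase and CDK1 in G2, had the smallest p of the class on the average. Coordinates are those of RefSeq on GRCh38.p14. CCNA2 in H929 stood at 112, 104 and 108 CPM with the IRF4 guide and at 316, 299 and 238 CPM with EV. MM1S libraries had CCNA2 at 175, 168 and 156 CPM with the IRF4 guide, against 284 and 292 CPM with EV. The guide libraries of H929 and MM1S lay below every EV library of their line. CCNA2 in OPM2 stood at 305, 277 and 316 CPM with the IRF4 guide and at 428, 357 and 389 CPM with EV. RPMI-8226 libraries had CCNA2 at 175, 212 and 171 CPM with the IRF4 guide, against 203, 211 and 185 CPM with EV. The groups were apart in OPM2 and overlapped in RPMI-8226. The change of CCNA2 was -1.40 ± 0.10 (H929), -0.79 ± 0.10 (MM1S), -0.39 ± 0.09 (OPM2) and -0.11 ± 0.09 (RPMI-8226), and -0.67 ± 0.05 on average (adjusted p = 3.80e-13). CCNB2, cyclin B2 (chromosome 15, 59105146 to 59125045), a partner of CDK1, fell in H929 and rose in RPMI-8226. CCNB2 in H929 stood at 92.7, 79.9 and 90.7 CPM with the IRF4 guide and at 129, 127 and 106 CPM with EV. MM1S libraries had CCNB2 at 109, 101 and 86.04 CPM with the IRF4 guide, against 98.3 and 94.7 CPM with EV. H929 guide libraries were all below EV, while those of MM1S overlapped it. CCNB2 in OPM2 stood at 147, 125 and 135 CPM with the IRF4 guide and at 154, 115 and 133 CPM with EV. RPMI-8226 libraries had CCNB2 at 254, 247 and 250.3 CPM with the IRF4 guide, against 205, 208 and 212 CPM with EV. All guide libraries of RPMI-8226 lay above EV, and in OPM2 the groups overlapped. CCNB2 fell in H929 (-0.45 ± 0.10, adjusted p = 1.49e-04) and rose in RPMI-8226 (0.27 ± 0.09, adjusted p = 0.0261), with 0.04 ± 0.11 in MM1S and 0.01 ± 0.09 in OPM2. Its rise was not called without EV replicate 1, EV replicate 2, IRF4 guide replicate 1 or IRF4 guide replicate 3 of RPMI-8226 (adjusted p = 0.0687 to 0.0925). CCNB1, cyclin B1, had log2 ratios of -0.90 ± 0.09 (H929), -0.34 ± 0.11 (MM1S), -0.42 ± 0.09 (OPM2) and 0.06 ± 0.09 (RPMI-8226). CDC25C, a CDK1-activating phosphatase (chromosome 5, 138285265 to 138338355), was the least abundant member at 6.35 RPKM on average over the libraries. CDC25C in H929 stood at 19.02, 13.8 and 16.3 CPM with the IRF4 guide and at 29.5, 29.5 and 27.2 CPM with EV. MM1S libraries had CDC25C at 16.2, 12.7 and 9.56 CPM with the IRF4 guide, against 16.9 and 15.5 CPM with EV. H929 was apart between the groups and MM1S was not. CDC25C in OPM2 stood at 14.1, 11.3 and 15.7 CPM with the IRF4 guide and at 18.8, 11.03 and 15.8 CPM with EV. RPMI-8226 libraries had CDC25C at 14.01, 15.3 and 15.8 CPM with the IRF4 guide, against 12.8, 12.8 and 12.6 CPM with EV. RPMI-8226 guide libraries all lay above EV by narrow margins, and CDC25C was called in H929 alone among the lines (-0.79 ± 0.16, adjusted p = 7.44e-05). CDC25B, the other CDK1-activating phosphatase of the module, had log2 ratios of -0.99 ± 0.08 (H929), -0.14 ± 0.09 (MM1S), -0.23 ± 0.07 (OPM2) and -0.19 ± 0.08 (RPMI-8226). The gene bodies of CCNA2 and EXOSC9, and of CDC25C and FAM53C, overlap on the genome, and the strand setting of the counting is not given, so shared reads cannot be told apart.

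Of 5 mitotic kinases, 5 fell in H929, 3 in MM1S, 4 in OPM2 and AURKB in RPMI-8226. AURKB (chromosome 17, 8204731 to 8210575), the aurora kinase of the chromosomal passenger complex, fell in every line. AURKB in H929 stood at 31.7, 27.03 and 31.1 CPM with the IRF4 guide and at 80.1, 78.8 and 66.1 CPM with EV. MM1S libraries had AURKB at 52.2, 46.1 and 42.7 CPM with the IRF4 guide, against 76.8 and 75.5 CPM with EV. Both lines had the groups fully apart. AURKB in OPM2 stood at 51.8, 45.9 and 53.8 CPM with the IRF4 guide and at 75.1, 55.02 and 73.9 CPM with EV. RPMI-8226 libraries had AURKB at 44.2, 56.6 and 41.8 CPM with the IRF4 guide, against 58.7, 59.9 and 61.8 CPM with EV. There too no guide library reached the lowest EV library. AURKB had log2 ratios of -1.31 ± 0.12 (H929), -0.68 ± 0.13 (MM1S), -0.44 ± 0.11 (OPM2) and -0.34 ± 0.11 (RPMI-8226), and of -0.69 ± 0.06 on average (adjusted p = 1.91e-11). Its fall in RPMI-8226 (adjusted p = 0.0213) was not called without EV replicate 2, EV replicate 3, IRF4 guide replicate 1 or IRF4 guide replicate 3 (adjusted p = 0.0556 to 0.119). PLK1 (chromosome 16, 23678889 to 23690367), the polo-like kinase that acts from mitotic entry to cytokinesis, was the most abundant member per length after TOP2A, at 121 RPKM. PLK1 in H929 stood at 196, 154 and 190.5 CPM with the IRF4 guide and at 281, 270.3 and 257 CPM with EV. MM1S libraries had PLK1 at 182, 181 and 153 CPM with the IRF4 guide, against 180.0 and 195 CPM with EV. Guide libraries were below EV in H929 and reached into it in MM1S. PLK1 in OPM2 stood at 341, 295 and 337 CPM with the IRF4 guide and at 429.5, 336 and 402 CPM with EV. RPMI-8226 libraries had PLK1 at 314, 355 and 275 CPM with the IRF4 guide, against 282, 302 and 285 CPM with EV. In both of these lines the groups overlapped. PLK1 fell in H929 (-0.58 ± 0.10, adjusted p = 1.10e-05) and OPM2 (-0.26 ± 0.10, adjusted p = 0.0296), with -0.12 ± 0.11 in MM1S and 0.12 ± 0.10 in RPMI-8226. The OPM2 call was lost without EV replicate 1, EV replicate 3 or IRF4 guide replicate 2 (adjusted p = 0.0876 to 0.18). CDK1, the kinase that drives entry into mitosis, had log2 ratios of -1.09 ± 0.09 (H929), -0.82 ± 0.10 (MM1S), -0.31 ± 0.09 (OPM2) and 0.06 ± 0.09 (RPMI-8226). AURKA, the aurora kinase of spindle poles, had log2 ratios of -0.59 ± 0.10 (H929), -0.37 ± 0.12 (MM1S), -0.28 ± 0.10 (OPM2) and -0.03 ± 0.10 (RPMI-8226), and NEK2, a centrosome kinase, was called in H929 alone (-0.51 ± 0.11).

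All 5 checkpoint genes fell in each of H929, MM1S and OPM2, and in RPMI-8226 MAD2L1 fell and the other 4 were not called. MAD2L1 (chromosome 4, 120055623 to 120066848) encodes MAD2, which holds CDC20 in check, and had the lowest average change of the 49. MAD2L1 in H929 stood at 65.5, 49.4 and 67.2 CPM with the IRF4 guide and at 211, 192 and 162 CPM with EV. MM1S libraries had MAD2L1 at 124, 117 and 80.2 CPM with the IRF4 guide, against 192 and 185 CPM with EV. Guide libraries in both lines stayed below every EV library. MAD2L1 in OPM2 stood at 159.6, 169 and 166 CPM with the IRF4 guide and at 293, 272 and 255 CPM with EV. RPMI-8226 libraries had MAD2L1 at 122, 115 and 119 CPM with the IRF4 guide, against 161, 154 and 145 CPM with EV. The groups were apart in these lines as well. MAD2L1 had log2 ratios of -1.62 ± 0.12 (H929), -0.80 ± 0.13 (MM1S), -0.73 ± 0.12 (OPM2) and -0.38 ± 0.12 (RPMI-8226), and of -0.88 ± 0.06 on average (adjusted p = 3.07e-12). In RPMI-8226 its fall (adjusted p = 0.015) was not called without EV replicate 1 (adjusted p = 0.062). TTK, the MPS1 kinase that starts the checkpoint, had log2 ratios of -0.78 ± 0.09 (H929), -0.55 ± 0.11 (MM1S), -0.30 ± 0.09 (OPM2) and 0.09 ± 0.09 (RPMI-8226). BUB1B, or BubR1, had log2 ratios of -0.91 ± 0.08 (H929), -0.35 ± 0.09 (MM1S), -0.21 ± 0.08 (OPM2) and 0.19 ± 0.08 (RPMI-8226), and the kinase BUB1 of -0.35 ± 0.08 (H929), -0.50 ± 0.09 (MM1S), -0.39 ± 0.08 (OPM2) and 0.07 ± 0.08 (RPMI-8226). BUB3, part of the same inhibitory complex, had log2 ratios of -0.57 ± 0.09 (H929), -0.50 ± 0.10 (MM1S), -0.24 ± 0.09 (OPM2) and 0.03 ± 0.09 (RPMI-8226).

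Of the 4 anaphase genes, 4 fell in H929, ESPL1 in MM1S, CDC20 and PTTG1 in OPM2 and none in RPMI-8226. ESPL1 (chromosome 12, 53268299 to 53293638) encodes separase, which cuts cohesin. ESPL1 in H929 stood at 39.4, 35.8 and 46.1 CPM with the IRF4 guide and at 93.8, 119 and 96.9 CPM with EV. MM1S libraries had ESPL1 at 97.7, 105 and 93.2 CPM with the IRF4 guide, against 152 and 163 CPM with EV. Separase libraries were apart by guide in both lines. ESPL1 in OPM2 stood at 89.9, 86.2 and 113 CPM with the IRF4 guide and at 116, 100.4 and 125 CPM with EV. RPMI-8226 libraries had ESPL1 at 130.1, 162 and 124 CPM with the IRF4 guide, against 139.5, 150.5 and 156 CPM with EV. Here the groups overlapped. ESPL1 had log2 ratios of -1.33 ± 0.12 (H929), -0.67 ± 0.13 (MM1S), -0.25 ± 0.11 (OPM2) and -0.10 ± 0.11 (RPMI-8226), and of -0.59 ± 0.06 on average (adjusted p = 1.59e-09). The replicate block, which added calls in OPM2 where most other settings took calls away, gave a call of lower for ESPL1 there (adjusted p = 0.0308). CDC20, the activator of the anaphase-promoting complex, had log2 ratios of -0.72 ± 0.09 (H929), -0.15 ± 0.10 (MM1S), -0.43 ± 0.09 (OPM2) and -0.10 ± 0.09 (RPMI-8226). PTTG1, or securin, the inhibitor of separase, had log2 ratios of -1.02 ± 0.11 (H929), -0.15 ± 0.12 (MM1S), -0.29 ± 0.10 (OPM2) and 0.10 ± 0.11 (RPMI-8226), and its copy PTTG2 had 0 to 7 counts a library. UBE2C (chromosome 20, 45812644 to 45816952), the ubiquitin-conjugating enzyme of the complex, was nearly absent from RPMI-8226 in either group. UBE2C in RPMI-8226 stood at 0.239, 0.204 and 0.623 CPM with the IRF4 guide and at 0.165, 0.469 and 0.439 CPM with EV. H929 libraries had UBE2C at 119, 88.8 and 119.8 CPM with the IRF4 guide, against 199, 172 and 158 CPM with EV. The RPMI-8226 values rest on 4 to 14 counts a library. MM1S had UBE2C at 84.2, 81.6 and 79.1 CPM with the IRF4 guide and 91.1 and 95.95 CPM with EV, and OPM2 had 159, 117 and 145 CPM with the IRF4 guide and 198, 142 and 159 CPM with EV. The EV mean of H929 was 493 times that of RPMI-8226, and UBE2C fell in H929 (-0.68 ± 0.14, adjusted p = 1.90e-04), with no call in the other lines.

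Kinetochore and centromere genes fell in 9 of 9 cases in H929, 8 of 9 in MM1S and 5 of 9 in OPM2, and in RPMI-8226 CENPF and NDC80 rose and none fell. CENPK (chromosome 5, 65495624 to 65563168) and CENPM, subunits of the inner kinetochore, had the smallest p of the class on the average. CENPK in H929 stood at 15.1, 13.4 and 14.6 CPM with the IRF4 guide and at 40.4, 36.1 and 32.4 CPM with EV. MM1S libraries had CENPK at 10.6, 11.4 and 9.14 CPM with the IRF4 guide, against 27.3 and 29.1 CPM with EV. At 8.84 RPKM on average over the libraries CENPK was the least abundant member after CDC25C, and its groups were well apart in both lines. CENPK in OPM2 stood at 24.7, 24.6 and 25.4 CPM with the IRF4 guide and at 38.1, 34.6 and 34.7 CPM with EV. RPMI-8226 libraries had CENPK at 36.4, 37.9 and 37.4 CPM with the IRF4 guide, against 37.6, 42.6 and 37.1 CPM with EV. OPM2 kept the groups apart and RPMI-8226 did not. CENPK had log2 ratios of -1.33 ± 0.10 (H929), -1.43 ± 0.12 (MM1S), -0.53 ± 0.09 (OPM2) and -0.07 ± 0.09 (RPMI-8226), and of -0.84 ± 0.05 on average (adjusted p = 1.48e-14). Between lines its adjusted p was 5.48e-09, among the smallest 4 of the module. CENPM in H929 stood at 23.7, 27.03 and 23.1 CPM with the IRF4 guide and at 57.3, 55 and 48.8 CPM with EV. MM1S libraries had CENPM at 37.9, 36.1 and 30.2 CPM with the IRF4 guide, against 60.03 and 65.2 CPM with EV. CENPM libraries were apart by guide in both lines. CENPM in OPM2 stood at 49, 52.7 and 51.5 CPM with the IRF4 guide and at 76.8, 78.9 and 72.1 CPM with EV. RPMI-8226 libraries had CENPM at 68.2, 90.5 and 74.2 CPM with the IRF4 guide, against 86.1, 82.8 and 86.5 CPM with EV. CENPM had log2 ratios of -1.14 ± 0.10 (H929), -0.83 ± 0.11 (MM1S), -0.57 ± 0.09 (OPM2) and -0.13 ± 0.09 (RPMI-8226), with overlap in RPMI-8226 alone.

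CENPF (chromosome 1, 214603195 to 214664571), a large protein of the outer kinetochore, fell in H929 and MM1S and rose in RPMI-8226. CENPF in H929 stood at 209, 191 and 231 CPM with the IRF4 guide and at 325, 345 and 299.9 CPM with EV. MM1S libraries had CENPF at 488, 467 and 459 CPM with the IRF4 guide, against 664 and 641 CPM with EV. The guide libraries were below EV in both. CENPF in OPM2 stood at 919.9, 828 and 958 CPM with the IRF4 guide and at 989, 796 and 971 CPM with EV. RPMI-8226 libraries had CENPF at 342, 352 and 380.5 CPM with the IRF4 guide, against 252, 260.5 and 296 CPM with EV. OPM2 groups overlapped, and in RPMI-8226 every guide library was above every EV library. CENPF had log2 ratios of -0.62 ± 0.09 (H929), -0.47 ± 0.09 (MM1S), -0.03 ± 0.08 (OPM2) and 0.41 ± 0.09 (RPMI-8226) (adjusted p = 3.79e-04 in RPMI-8226). NDC80 (chromosome 18, 2571557 to 2616635), the microtubule-binding subunit of the complex named after it, did likewise. NDC80 in H929 stood at 70.6, 59.5 and 73.5 CPM with the IRF4 guide and at 154, 152 and 122 CPM with EV. MM1S libraries had NDC80 at 56.9, 59.99 and 48.4 CPM with the IRF4 guide, against 87.3 and 87.2 CPM with EV. Guide libraries lay below EV in these lines. NDC80 in OPM2 stood at 91.7, 79.8 and 88.2 CPM with the IRF4 guide and at 116, 90.5 and 99.2 CPM with EV. RPMI-8226 libraries had NDC80 at 127, 149 and 134 CPM with the IRF4 guide, against 102, 116 and 105 CPM with EV. The OPM2 groups overlapped and the RPMI-8226 guide libraries all lay above EV. NDC80 had log2 ratios of -1.06 ± 0.10 (H929), -0.66 ± 0.12 (MM1S), -0.24 ± 0.10 (OPM2) and 0.35 ± 0.10 (RPMI-8226) (adjusted p = 0.00718 in RPMI-8226). With the replicate block NDC80 was called lower in OPM2 (adjusted p = 0.0127). Its partners were not called there: NUF2 was at 0.14 ± 0.08, SPC24 at 0.07 ± 0.13 and SPC25 at 0.05 ± 0.13 in RPMI-8226. SPC25 had log2 ratios of -1.42 ± 0.14 (H929), -1.08 ± 0.15 (MM1S), -0.44 ± 0.13 (OPM2) and 0.05 ± 0.13 (RPMI-8226), and of -0.72 ± 0.07 on average (adjusted p = 1.98e-10). CENPE (chromosome 4, 103105811 to 103198343), the kinetochore motor, had 11.2 RPKM on average over the libraries, above only CDC25C and CENPK among the members. CENPE in H929 stood at 51.9, 46.2 and 59.8 CPM with the IRF4 guide and at 112, 109.5 and 111 CPM with EV. MM1S libraries had CENPE at 62.3, 69.1 and 61.9 CPM with the IRF4 guide, against 129 and 113 CPM with EV. Both lines were apart by guide. CENPE in OPM2 stood at 127, 134 and 173 CPM with the IRF4 guide and at 170.1, 138 and 188 CPM with EV. RPMI-8226 libraries had CENPE at 66.8, 61.4 and 66.8 CPM with the IRF4 guide, against 46.9, 58.7 and 59.7 CPM with EV. RPMI-8226 guide libraries lay above EV, but the change was not called (0.24 ± 0.12, adjusted p = 0.11), nor was that of OPM2 (-0.20 ± 0.11), beside -1.07 ± 0.12 in H929 and -0.91 ± 0.13 in MM1S. CENPE was called lower in OPM2 with the replicate block (adjusted p = 0.03). CENPA, the centromeric histone, had log2 ratios of -0.82 ± 0.15 (H929), -0.19 ± 0.17 (MM1S), -0.34 ± 0.13 (OPM2) and -0.21 ± 0.13 (RPMI-8226).

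**Figure D3:**
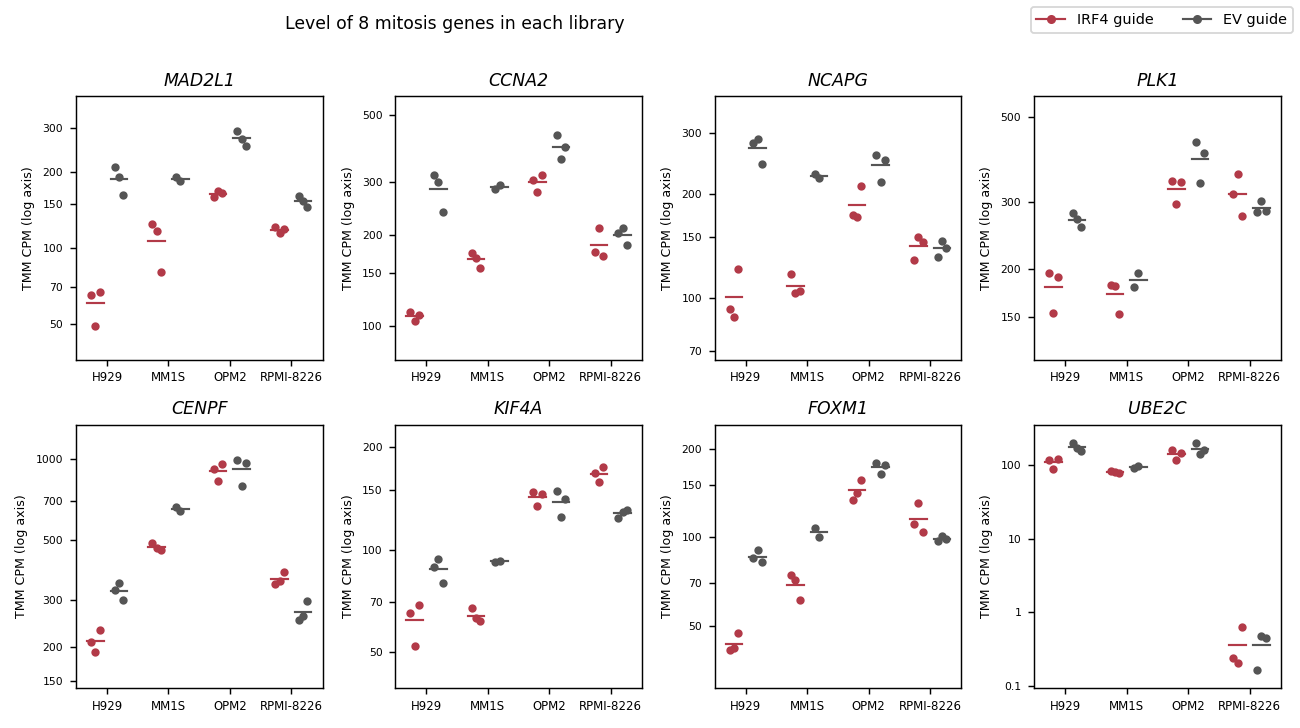
TMM-normalised CPM (log axis) of 8 mitosis genes in each library, with the IRF4 guide (red) left of EV (grey) in each line; bars are group means. MAD2L1 is lower with the IRF4 guide in all 4 lines, CENPF, KIF4A and FOXM1 are lower in H929 and MM1S and higher in RPMI-8226, and UBE2C is at most 0.623 CPM in RPMI-8226 in either group.

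All 6 kinesins fell in H929, 5 in MM1S and KIF23 in OPM2, and in RPMI-8226 KIF4A and KIF18A rose. KIF11 (chromosome 10, 92593130 to 92655395), or Eg5, which pushes the spindle poles apart, had the smallest p of the class on the average. KIF11 in H929 stood at 144, 125 and 142 CPM with the IRF4 guide and at 335, 311 and 272 CPM with EV. MM1S libraries had KIF11 at 254, 239.6 and 207 CPM with the IRF4 guide, against 376 and 345 CPM with EV. Eg5 was lower in every guide library of these lines. KIF11 in OPM2 stood at 293, 266 and 278 CPM with the IRF4 guide and at 354, 289 and 314 CPM with EV. RPMI-8226 libraries had KIF11 at 249, 286 and 239.8 CPM with the IRF4 guide, against 287, 296 and 249.9 CPM with EV. In the other lines the groups overlapped, and KIF11 had log2 ratios of -1.15 ± 0.09 (H929), -0.62 ± 0.10 (MM1S), -0.20 ± 0.09 (OPM2) and -0.10 ± 0.09 (RPMI-8226). KIF11 was called lower in OPM2 with the replicate block (adjusted p = 0.0112). KIF23 (chromosome 15, 69414349 to 69448427), or MKLP1, a motor of the central spindle, came next. KIF23 in H929 stood at 81.7, 76.4 and 87.95 CPM with the IRF4 guide and at 179, 176 and 144 CPM with EV. MM1S libraries had KIF23 at 85.1, 76.9 and 68.6 CPM with the IRF4 guide, against 118 and 117 CPM with EV. Its groups were apart in both lines. KIF23 in OPM2 stood at 97.2, 84.2 and 93.9 CPM with the IRF4 guide and at 126, 100.1 and 110.3 CPM with EV. RPMI-8226 libraries had KIF23 at 154, 182 and 144 CPM with the IRF4 guide, against 146, 168 and 142 CPM with EV. KIF23 had log2 ratios of -1.01 ± 0.10 (H929), -0.60 ± 0.12 (MM1S), -0.29 ± 0.10 (OPM2) and 0.07 ± 0.10 (RPMI-8226), apart in OPM2 and overlapping in RPMI-8226. The OPM2 call of KIF23 was lost without EV replicate 1 (adjusted p = 0.16) or IRF4 guide replicate 2 (adjusted p = 0.0952). KIF4A (chromosome X, 70290104 to 70420886), a chromokinesin that works with condensin, rose in RPMI-8226. KIF4A in H929 stood at 65.2, 52.01 and 68.8 CPM with the IRF4 guide and at 89.2, 94 and 79.7 CPM with EV. MM1S libraries had KIF4A at 67.2, 62.8 and 61.5 CPM with the IRF4 guide, against 92.1 and 92.8 CPM with EV. Guide libraries were below EV there. KIF4A in OPM2 stood at 148, 134 and 145 CPM with the IRF4 guide and at 149, 125 and 141 CPM with EV. RPMI-8226 libraries had KIF4A at 168, 158 and 176 CPM with the IRF4 guide, against 124, 129.5 and 131 CPM with EV. KIF4A had log2 ratios of -0.48 ± 0.09 (H929), -0.53 ± 0.10 (MM1S), 0.04 ± 0.08 (OPM2) and 0.38 ± 0.08 (RPMI-8226), with an adjusted p of 7.17e-04 in RPMI-8226, where no libraries overlapped. KIF4B, a near copy of it, had 33 to 319 counts a library, so reads of the 2 genes may be partly exchanged. KIF18A (chromosome 11, 28020619 to 28108156), which damps the movement of chromosomes at the spindle equator, did the same at a lower level. KIF18A in H929 stood at 29.8, 25.9 and 29.1 CPM with the IRF4 guide and at 39.96, 46.1 and 41.5 CPM with EV. MM1S libraries had KIF18A at 29.1, 30.9 and 31.6 CPM with the IRF4 guide, against 40.2 and 43.7 CPM with EV. In MM1S the fall was not called without EV replicate 3 (adjusted p = 0.057). KIF18A in OPM2 stood at 72.4, 58.9 and 76.1 CPM with the IRF4 guide and at 65.7, 53.5 and 65.4 CPM with EV. RPMI-8226 libraries had KIF18A at 32.9, 30.4 and 36.02 CPM with the IRF4 guide, against 22.9, 26.7 and 24.1 CPM with EV. KIF18A had log2 ratios of -0.57 ± 0.11 (H929), -0.47 ± 0.12 (MM1S), 0.16 ± 0.10 (OPM2) and 0.43 ± 0.10 (RPMI-8226), and the rise in RPMI-8226 had an adjusted p of 0.00204. KIF20A, or MKLP2, whose gene body overlaps that of CDC23, had log2 ratios of -1.08 ± 0.11 (H929), -0.29 ± 0.12 (MM1S), -0.13 ± 0.11 (OPM2) and 0.09 ± 0.11 (RPMI-8226), and KIF2C, or MCAK, of -0.96 ± 0.10 (H929), -0.31 ± 0.12 (MM1S), -0.23 ± 0.10 (OPM2) and 0.07 ± 0.10 (RPMI-8226).

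Of 6 genes of the passenger complex and cytokinesis, 6 fell in H929, 6 in MM1S and 4 in OPM2, and CDCA8 rose in RPMI-8226. ECT2 (chromosome 3, 172750726 to 172829265), which activates RhoA at the cleavage furrow, had the smallest p of the class on the average. ECT2 in H929 stood at 50.6, 47.9 and 54.8 CPM with the IRF4 guide and at 104, 98.9 and 89.3 CPM with EV. MM1S libraries had ECT2 at 83.4, 77.9 and 74.3 CPM with the IRF4 guide, against 119.6 and 110.3 CPM with EV. The groups were apart in both. ECT2 in OPM2 stood at 105, 92.1 and 106 CPM with the IRF4 guide and at 140.5, 115 and 126 CPM with EV. RPMI-8226 libraries had ECT2 at 205, 209.5 and 201 CPM with the IRF4 guide, against 192, 202 and 175 CPM with EV. ECT2 had log2 ratios of -0.92 ± 0.09 (H929), -0.54 ± 0.09 (MM1S), -0.34 ± 0.08 (OPM2) and 0.11 ± 0.08 (RPMI-8226), overlapping in RPMI-8226. PRC1 (chromosome 15, 90966040 to 90994535), which bundles the microtubules of the central spindle, differed between lines at an adjusted p of 2.57e-09. PRC1 in H929 stood at 54.4, 46.3 and 60.97 CPM with the IRF4 guide and at 114, 119.8 and 106 CPM with EV. MM1S libraries had PRC1 at 62.1, 56.5 and 57.1 CPM with the IRF4 guide, against 77.9 and 89.4 CPM with EV. PRC1 was lower in each guide library of these lines. PRC1 in OPM2 stood at 153, 147 and 158 CPM with the IRF4 guide and at 181, 170.1 and 162 CPM with EV. RPMI-8226 libraries had PRC1 at 203, 211 and 207 CPM with the IRF4 guide, against 178, 184 and 185 CPM with EV. The groups did not overlap in OPM2, where the guide libraries were lower, nor in RPMI-8226, where they were higher, yet neither change was called (-0.16 ± 0.08 and 0.19 ± 0.08, beside -1.06 ± 0.08 in H929 and -0.51 ± 0.09 in MM1S). CDCA8 (chromosome 1, 37692516 to 37709719), or borealin, is a subunit of the passenger complex with BIRC5, INCENP and AURKB. CDCA8 in H929 stood at 99.8, 97.5 and 98.3 CPM with the IRF4 guide and at 138, 149 and 122 CPM with EV. MM1S libraries had CDCA8 at 107, 103 and 87.8 CPM with the IRF4 guide, against 132 and 137 CPM with EV. It was lower in the guide libraries of both lines. CDCA8 in OPM2 stood at 166, 134 and 151 CPM with the IRF4 guide and at 199, 152 and 170.0 CPM with EV. RPMI-8226 libraries had CDCA8 at 163, 184 and 167 CPM with the IRF4 guide, against 136, 148 and 149.8 CPM with EV. CDCA8 had log2 ratios of -0.47 ± 0.09 (H929), -0.43 ± 0.11 (MM1S), -0.21 ± 0.09 (OPM2) and 0.24 ± 0.09 (RPMI-8226), and its rise in RPMI-8226 (adjusted p = 0.0433) was lost when any 1 of 8 libraries was left out (EV replicates 1, 2 and 3 and IRF4 guide replicates 2 and 3 of the line among them, adjusted p = 0.0507 to 0.168) and under 7 other settings, DESeq2 among them. With the replicate block CDCA8 was called lower in OPM2 (adjusted p = 0.00662). BIRC5, or survivin, had log2 ratios of -0.74 ± 0.09 (H929), -0.47 ± 0.10 (MM1S), -0.34 ± 0.09 (OPM2) and 0.15 ± 0.09 (RPMI-8226), and INCENP, the scaffold, of -0.52 ± 0.09 (H929), -0.53 ± 0.10 (MM1S), -0.26 ± 0.09 (OPM2) and 0.10 ± 0.09 (RPMI-8226). Of the 4 subunits in RPMI-8226, AURKB was lower, CDCA8 higher and the other 2 not called. ANLN, or anillin, of the contractile ring, had log2 ratios of -1.17 ± 0.13 (H929), -0.94 ± 0.14 (MM1S), -0.42 ± 0.12 (OPM2) and 0.25 ± 0.12 (RPMI-8226).

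Both spindle genes fell in H929 and MM1S, neither was called in OPM2 without the replicate block, and HMMR rose in RPMI-8226. TPX2 (chromosome 20, 31739290 to 31801800), which activates AURKA on the spindle, had the smaller p on the average. TPX2 in H929 stood at 260.0, 210.2 and 251 CPM with the IRF4 guide and at 442, 441 and 389 CPM with EV. MM1S libraries had TPX2 at 210.0, 215 and 182 CPM with the IRF4 guide, against 292 and 296 CPM with EV. Guide libraries of these lines lay below EV. TPX2 in OPM2 stood at 349, 322 and 336 CPM with the IRF4 guide and at 423, 342 and 369 CPM with EV. RPMI-8226 libraries had TPX2 at 305, 315 and 308 CPM with the IRF4 guide, against 314, 320.4 and 312 CPM with EV. Elsewhere the groups overlapped, and TPX2 had log2 ratios of -0.81 ± 0.08 (H929), -0.54 ± 0.09 (MM1S), -0.17 ± 0.08 (OPM2) and -0.03 ± 0.08 (RPMI-8226). With the replicate block TPX2 was called lower in OPM2 (adjusted p = 0.033). HMMR (chromosome 5, 163460632 to 163491941), a partner of TPX2 on spindle microtubules, had the log2 ratio nearest to 0 of the 49 in H929. HMMR in H929 stood at 119, 96.3 and 120.3 CPM with the IRF4 guide and at 132, 141 and 138 CPM with EV. MM1S libraries had HMMR at 95.8, 89.5 and 81.05 CPM with the IRF4 guide, against 107 and 106 CPM with EV. The margins between the groups were small in both lines. HMMR in OPM2 stood at 91.95, 79.5 and 78.5 CPM with the IRF4 guide and at 102, 90.2 and 89.7 CPM with EV. RPMI-8226 libraries had HMMR at 128, 122 and 140.3 CPM with the IRF4 guide, against 103, 106 and 112 CPM with EV. HMMR had log2 ratios of -0.28 ± 0.09 (H929), -0.26 ± 0.10 (MM1S), -0.17 ± 0.09 (OPM2) and 0.29 ± 0.09 (RPMI-8226). HMMR, too, was called lower in OPM2 with the replicate block (adjusted p = 0.0335). Its call in H929 was lost without IRF4 guide replicate 2 (adjusted p = 0.0624), that in MM1S without 4 of the 5 MM1S libraries (adjusted p = 0.0738 to 0.173), and that in RPMI-8226 without IRF4 guide replicate 3 (adjusted p = 0.11).

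Condensin and topoisomerase genes fell in 6 of 6 cases in H929, 5 in MM1S and 3 in OPM2, and TOP2A rose in RPMI-8226. SMC2 (chromosome 9, 104088263 to 104141419), a core ATPase of condensin, had the smallest p of the module for the difference between lines (adjusted p = 4.25e-10). SMC2 in H929 stood at 122, 120.2 and 129 CPM with the IRF4 guide and at 264, 264 and 229 CPM with EV. MM1S libraries had SMC2 at 130.5, 121 and 109.7 CPM with the IRF4 guide, against 248 and 238 CPM with EV. In H929 and MM1S guide libraries lay far below EV. SMC2 in OPM2 stood at 137, 134 and 141 CPM with the IRF4 guide and at 166, 152 and 168 CPM with EV. RPMI-8226 libraries had SMC2 at 206, 230.1 and 234 CPM with the IRF4 guide, against 213, 219 and 203 CPM with EV. SMC2 had log2 ratios of -1.02 ± 0.08 (H929), -1.01 ± 0.08 (MM1S), -0.24 ± 0.07 (OPM2) and 0.08 ± 0.07 (RPMI-8226), apart in OPM2 and overlapping in RPMI-8226. NCAPG (chromosome 4, 17810979 to 17844865), a regulatory subunit of condensin I whose gene body overlaps that of LCORL, had an adjusted p of 1.58e-08 between lines. NCAPG in H929 stood at 92.5, 87.7 and 121 CPM with the IRF4 guide and at 279.5, 288 and 243 CPM with EV. MM1S libraries had NCAPG at 117, 103 and 105 CPM with the IRF4 guide, against 227 and 221 CPM with EV. Its groups were apart in both lines. NCAPG in OPM2 stood at 173, 171 and 211 CPM with the IRF4 guide and at 258, 216 and 251 CPM with EV. RPMI-8226 libraries had NCAPG at 128, 149 and 145 CPM with the IRF4 guide, against 131, 146 and 139 CPM with EV. NCAPG had log2 ratios of -1.42 ± 0.10 (H929), -1.04 ± 0.12 (MM1S), -0.39 ± 0.10 (OPM2) and 0.02 ± 0.10 (RPMI-8226), and of -0.71 ± 0.05 on average (adjusted p = 2.48e-12). SMC4 (chromosome 3, 160399650 to 160434953), the partner of SMC2, came after TOP2A and PLK1 in abundance, at 116 RPKM. SMC4 in H929 stood at 245, 252 and 333 CPM with the IRF4 guide and at 433, 445 and 453 CPM with EV. MM1S libraries had SMC4 at 845, 809 and 829.7 CPM with the IRF4 guide, against 1315 and 1194 CPM with EV. Both lines had lower SMC4 in every guide library. SMC4 in OPM2 stood at 541, 564 and 577 CPM with the IRF4 guide and at 641, 589.5 and 629 CPM with EV. RPMI-8226 libraries had SMC4 at 799, 787 and 902 CPM with the IRF4 guide, against 723, 764 and 747 CPM with EV. The groups were apart in opposite directions in OPM2 and RPMI-8226 without a call (-0.15 ± 0.08 and 0.16 ± 0.08), beside -0.68 ± 0.08 in H929 and -0.60 ± 0.09 in MM1S. TOP2A (chromosome 17, 40388525 to 40417896), the topoisomerase that untangles sister chromatids, was the most abundant member at 134 RPKM. TOP2A in H929 stood at 499, 452 and 572 CPM with the IRF4 guide and at 801, 834 and 744 CPM with EV. MM1S libraries had TOP2A at 756, 753 and 716 CPM with the IRF4 guide, against 941 and 992 CPM with EV. The guide libraries were lower in these lines. TOP2A in OPM2 stood at 959, 805 and 981 CPM with the IRF4 guide and at 929.9, 719.9 and 903 CPM with EV. RPMI-8226 libraries had TOP2A at 810.0, 735 and 814 CPM with the IRF4 guide, against 634, 644 and 669 CPM with EV. OPM2 groups overlapped, RPMI-8226 guide libraries were all above EV, and TOP2A had log2 ratios of -0.64 ± 0.09 (H929), -0.38 ± 0.10 (MM1S), 0.10 ± 0.09 (OPM2) and 0.28 ± 0.09 (RPMI-8226). The rise in RPMI-8226 (adjusted p = 0.0167) was not called without EV replicate 1, EV replicate 2, IRF4 guide replicate 1 or IRF4 guide replicate 3 (adjusted p = 0.054 to 0.101). NCAPH, another condensin I subunit, had log2 ratios of -1.03 ± 0.10 (H929), -0.59 ± 0.11 (MM1S), -0.40 ± 0.10 (OPM2) and -0.19 ± 0.10 (RPMI-8226), and NCAPD2 of -0.32 ± 0.07 (H929), -0.13 ± 0.08 (MM1S), -0.07 ± 0.07 (OPM2) and 0.18 ± 0.07 (RPMI-8226).

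FOXM1 (chromosome 12, 2857680 to 2877174), the transcription factor of many genes of this module, fell in H929, MM1S and OPM2 and rose in RPMI-8226. FOXM1 in H929 stood at 41.3, 41.9 and 47.2 CPM with the IRF4 guide and at 84.9, 90.8 and 82.2 CPM with EV. MM1S libraries had FOXM1 at 74.2, 71.3 and 61.2 CPM with the IRF4 guide, against 108 and 100.2 CPM with EV. Its level with the IRF4 guide in H929 was 50.8% of that with EV. FOXM1 in OPM2 stood at 134, 142 and 157 CPM with the IRF4 guide and at 179, 164 and 176 CPM with EV. RPMI-8226 libraries had FOXM1 at 111, 130.5 and 104 CPM with the IRF4 guide, against 96.7, 101 and 98.4 CPM with EV. Guide libraries lay below EV in 3 lines and above it in RPMI-8226, with no overlap in any line. FOXM1 had log2 ratios of -0.98 ± 0.09 (H929), -0.58 ± 0.10 (MM1S), -0.27 ± 0.08 (OPM2) and 0.22 ± 0.08 (RPMI-8226) (adjusted p = 0.0104 in OPM2 and 0.0408 in RPMI-8226). The OPM2 call was lost without IRF4 guide replicate 1 (adjusted p = 0.0695). That in RPMI-8226 was lost without EV replicate 1, 2 or 3 or IRF4 guide replicate 2 of the line, or EV replicate 2 of OPM2 (adjusted p = 0.0682 to 0.276), and under 5 other settings, DESeq2 among them. The gene bodies of ITFG2 and RHNO1 overlap that of FOXM1, and shared reads cannot be told apart.

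The 9 genes called higher in RPMI-8226 were CCNB2, CENPF, NDC80, KIF4A, KIF18A, CDCA8, HMMR, TOP2A and FOXM1, 18.4% of the members where 19.2% of all tested genes were. Since all 49 members fell in H929, so did these, a pair of calls that 1.55% of all tested genes had. For CENPF, NDC80, KIF4A and KIF18A the rise was called under each of 34 alternatives tried. The difference between RPMI-8226 and the mean of the other lines was 1.00 ± 0.12 for NDC80, 0.83 ± 0.10 for FOXM1 and 0.78 ± 0.10 for CENPF, and its range over the 9 began at 0.40 ± 0.11 for CCNB2. Over the module it ran from 0.24 ± 0.16 for CENPA to 1.09 ± 0.14 for ANLN. With the replicate block, UBE2C (adjusted p = 0.00784), SPC24 (adjusted p = 0.00698) and KIF2C (adjusted p = 0.0082) were among the 10 members called lower in OPM2 beyond the 28. Settings other than a block that kept every library gave 11 to 28 lower there.

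**Figure D4:**
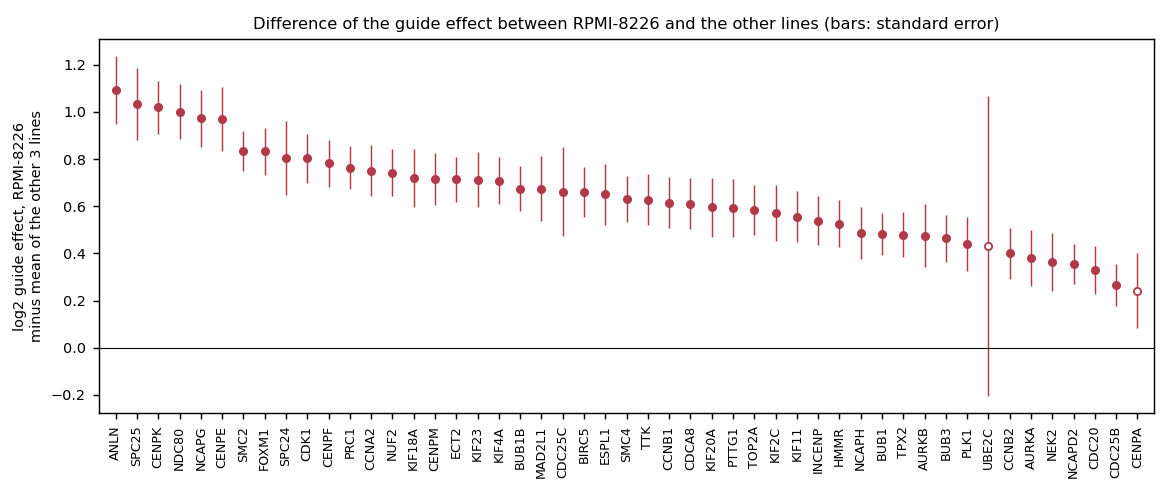
Log2 guide effect in RPMI-8226 minus the mean of H929, MM1S and OPM2 (vertical axis, bars: standard error) for each of the 49 mitosis genes in falling order. All 49 lie above 0, and the 47 filled points were called at an adjusted p under 0.05, with CENPA and UBE2C open.

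With EV alone, an F test between lines called 48 of 49 members, near the 93.1% of all genes, BUB3 being the exception (adjusted p = 0.0764). The highest EV mean was in OPM2 for 17 members, in H929 for 14, and in MM1S and RPMI-8226 for 9 each. The lowest was in RPMI-8226 for 20 members, in MM1S for 14, in H929 for 11 and in OPM2 for 4. Leaving out UBE2C, the ratio of the highest to the lowest EV mean ran from 1.18 for BUB1B to 3.41 for CENPF, with CENPE at 3.00 and SMC4 at 2.83. CENPE and CENPF were highest in OPM2 and lowest in RPMI-8226, and SMC4 was highest in MM1S and lowest in H929. Per length, the members spanned 6.35 RPKM for CDC25C to 134 RPKM for TOP2A as means over all libraries of the deposited values. Neighbours in that order overlapped over the lines, as TOP2A, PLK1 and SMC4 did.

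**Figure D5:**
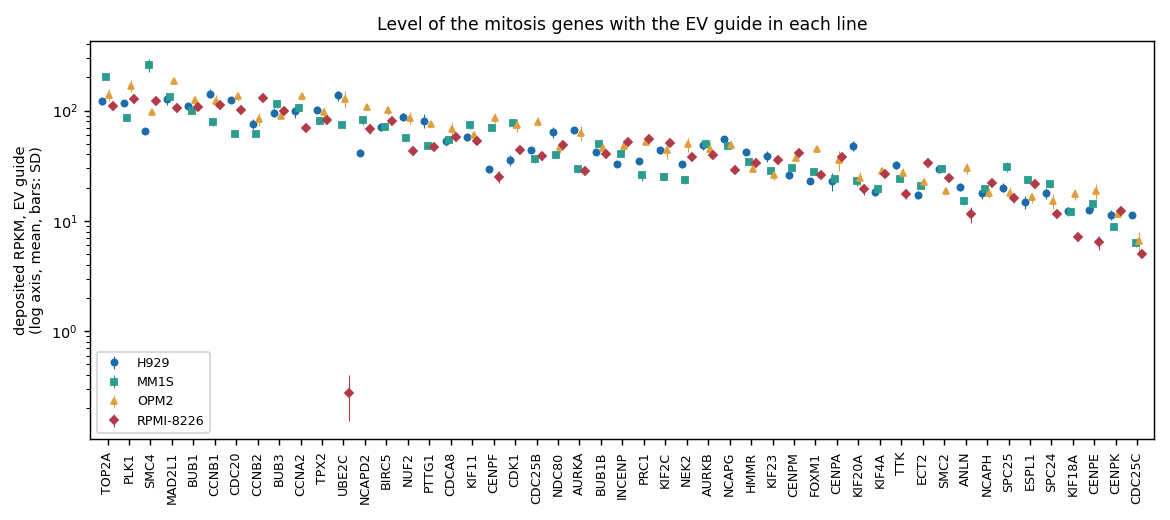
Deposited RPKM with EV (vertical log axis, mean over 2 or 3 libraries, bars: SD) of the 49 mitosis genes in H929 (circles), MM1S (squares), OPM2 (triangles) and RPMI-8226 (diamonds), in falling order of the mean over all libraries. UBE2C in RPMI-8226 stands far below every other point.

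Of 117 other mitosis genes in 8 lists, 95 were lower and 8 higher in H929, where 26.1% and 32.9% of all genes were. MM1S had 85 lower and 5 higher (15.2% and 19.4% of all genes), and OPM2 66 lower and 7 higher (20.2% and 23.3%). RPMI-8226 had 10 lower and 13 higher (14.7% and 19.2%). The medians were -0.77, -0.60, -0.25 and -0.01 for H929, MM1S, OPM2 and RPMI-8226. On the average 95 were lower and 9 higher (25.1% and 32.6% of all genes), with a median of -0.38, beside -0.39 for the 49 members. Other kinetochore genes fell in 29 of 31 cases on the average, with SKA1, a microtubule coupler, at -1.38 (H929), -1.18 (MM1S), -0.46 (OPM2) and -0.06 (RPMI-8226). Condensin II genes and their partners fell in 4 of 5, with NCAPD3 at -1.30 (H929), -0.69 (MM1S), -0.29 (OPM2) and -0.02 (RPMI-8226). Other kinases and CDK1 regulators fell in 13 of 14, with CDC25A, the CDC25 of S phase entry, at -2.15 (H929), -1.31 (MM1S), -0.99 (OPM2) and -0.39 (RPMI-8226). Of 15 genes of the anaphase-promoting complex and its regulators 12 fell and 2 rose, with FBXO5, the inhibitor EMI1, at -0.97 ± 0.06 on average. The RPMI-8226 difference was called above 0 for 6 of those 15, with a median of 0.09, and for 26 of 31 kinetochore genes with a median of 0.63, where 12.6% of all genes were. Of 18 other kinesins and spindle genes 15 fell and NUMA1, a spindle pole protein that also serves the interphase nucleus, rose (0.45 ± 0.04 on average). Cohesin genes fell in 10 of 13 cases and rose in 2, ESCO2, the acetyltransferase of S phase, being at -1.70 (H929), -1.49 (MM1S), -0.47 (OPM2) and 0.24 (RPMI-8226) and the loader MAU2 at 0.50 ± 0.04 on average. Of 13 MuvB and B-MYB genes 8 fell and 2 rose, with MYBL2, or B-MYB, at -1.45 (H929), -0.94 (MM1S), -0.78 (OPM2) and -0.24 (RPMI-8226) and RBL2, or p130, which holds these genes down in resting cells, at 0.47 ± 0.04 on average. Other cytokinesis genes were split, with 4 of 8 lower and 2 higher on average, among them CEP55 at -0.61 ± 0.04 and SEPTIN9 at 0.59 ± 0.04.

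DNA replication genes, from a list of 33, had lower medians than the mitosis genes in each line and the same order of lines. All 33 were lower in both H929 and MM1S, 29 were lower in OPM2, and RPMI-8226 had 7 lower and 3 higher (14.7% and 19.2% of all genes), with medians of -1.39, -1.02, -0.50 and -0.11, beside -0.91, -0.53, -0.26 and 0.09 for the 49 members. MCM10 had log2 ratios of -2.12 (H929), -1.32 (MM1S), -0.71 (OPM2) and -0.22 (RPMI-8226). GINS1 was at -1.82 (H929), -1.36 (MM1S), -0.77 (OPM2) and -0.65 (RPMI-8226) and CDC6 at -2.02 (H929), -1.36 (MM1S), -0.86 (OPM2) and -0.30 (RPMI-8226). CDC6 loads the MCM helicase, MCM10 helps to activate it and GINS1 is a subunit of the helicase.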

How the data were processed

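RNA was measured in 23 libraries of 4 lines. Raw counts per gene, as deposited by the authors, and log2 RPKM values for 16220 genes, also deposited by the authors, were used; per the submitters' processing notes Subread, featureCounts and limma with GRCh38/hg38 were used. Tool versions and the strand setting are not given in the sources used here. From the counts, genes passing edgeR's filterByExpr (16468 of 28395) were fitted over all 23 libraries with TMM factors (0.914 to 1.08) and edgeR's robust quasi-likelihood test (R 4.3.3, edgeR 4.0.16), with a mean for each of 8 groups, and p-values were adjusted by Benjamini-Hochberg over all tested genes. The steps were also run on simulated data, but the outcome is not given here, so that run backs none of the results.

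The members, the lists and the contrast of RPMI-8226 with the other lines were chosen with earlier results of these data known. Values in every library are given for 26 members: in each class the smallest p on the average (1, or 2 in classes of 6 or more), the 4 smallest p between lines, the 3 highest and 3 lowest by RPKM, and every member called higher in a line; UBE2C was added after its values were seen. Of the other lists, up to 3 called genes each were open to naming, by smallest adjusted p on the average.

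Pairs of libraries within a group correlated at r = 0.9937 to 0.9976. Each library was counted as a replicate, but r cannot tell separate cultures from technical libraries of the same culture. Replicate numbers paired the libraries in OPM2, where same-numbered libraries deviated together (r = 0.112 to 0.160 across genes). They did so too in H929 (r = 0.0703 to 0.133) and RPMI-8226 (r = 0.0658 to 0.102). The pairing comes from the numbers in the titles. Alternatives were 11 settings (among them DESeq2 1.42.0, limma 3.58.1 on the deposited log2 RPKM, other scaling factors and filters, and replicate blocks) and each of the 23 libraries left out in turn. With totals from 6907390 counts, members had at least 66 counts in every library apart from UBE2C in RPMI-8226 (4 to 14).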

Additional observations from a re-analysis of the deposited data

Results flagged for a closer look

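The effect of the IRF4 guide differed between lines for most of the module, by edgeR's tests of the difference itself. The F test called 48 of 49 members (48.0% of all genes), and RPMI-8226 minus the mean of the other lines was above 0 for 47 (12.6% of all genes). That contrast of RPMI-8226 is not independent of earlier results of these data, which had put the line apart. OPM2 minus the mean of H929 and MM1S was above 0 for 33 (8.91% of all genes), and H929 minus MM1S was below 0 for 20 (13.6% of all genes).

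In RPMI-8226, 9 members (18.4%) were called higher, near the 19.2% of all genes, and the count was 5 without EV replicate 1, EV replicate 2 or IRF4 guide replicate 3. All 49 members fell in H929, these included. Their effect in RPMI-8226 minus the mean of the other lines was 0.40 for CCNB2, 0.78 for CENPF, 1.00 for NDC80, 0.71 for KIF4A and 0.72 for KIF18A on the log2 scale. It was 0.61 for CDCA8, 0.53 for HMMR, 0.58 for TOP2A and 0.83 for FOXM1. The 4 members with the smallest p between lines had 0.83 for SMC2, 0.76 for PRC1, 1.02 for CENPK and 0.97 for NCAPG. All of these genes were picked by calls or tests that share data with this difference, so its sign is no separate test. Of the 49 members 47 were called above 0, with a median of 0.63, so a value above 0 does not set these genes apart.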

How the results depend on the processing

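No called value changed sign under the alternatives tried. On the deposited log2 RPKM, OPM2 had 11 members lower and 1 higher, and with library totals only 14 lower and 2 higher, while RPMI-8226 had 14 higher with library totals. The cause was not tested. The median change of all genes in OPM2 was 0.14 with library totals and 0.03 with TMM factors, and in H929 it was -0.07 on log2 RPKM and 0.10 with TMM factors. The share of called genes that were higher on the average of the lines was 56.5%, against 46.2% on log2 RPKM, and with library totals it was 66.7% in OPM2 and 65.1% in RPMI-8226.

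With replicate number as a block, 4 members were lower in RPMI-8226, whether 1 block served all lines or each line had its own, and 14 were higher with its own block. The shares of all genes called under a block are not given here, so these counts are not set against them. With its own block the median change in RPMI-8226 was 0.09 for the members and 0.04 for all genes. In OPM2 the block within each line gave 38 lower. In the other lines same-numbered libraries correlated at 0.0703 to 0.133 (H929), 0.0213 to 0.0470 (MM1S) and 0.0658 to 0.102 (RPMI-8226). Those of different numbers correlated at -0.0744 to -0.0174 (H929), -0.0470 to 0.0361 (MM1S) and -0.0687 to -0.0260 (RPMI-8226). The numbers thus paired the libraries in H929 and RPMI-8226 as well, while in MM1S the ranges overlapped. Over the lines 21 of 22 libraries correlated best with their own number, and the main fit had no block.

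Leaving out an MM1S EV library left 1 there, assumed to vary like the other groups. Leaving out 1 library at a time gave 48 to 49 members lower in H929, 32 to 39 in MM1S and 16 to 34 in OPM2, with 0 to 1 higher in OPM2. RPMI-8226 had 1 to 3 lower and 5 to 11 higher, the average 43 to 46 lower, and the F test 47 to 49. The differences ran from 43 to 47 (RPMI-8226), 28 to 36 (OPM2) and 14 to 25 (H929 minus MM1S), and the EV levels from 45 to 49. On the average, HMMR (adjusted p = 0.0393) and NCAPD2 (adjusted p = 0.0482) were lost without some libraries. The median standard error of a member's log2 ratio was 0.0953 (H929), 0.108 (MM1S), 0.0925 (OPM2) and 0.0928 (RPMI-8226).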

Other observations

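UBE2C was close to 0 in RPMI-8226 while DNTTIP1 and ACOT8, near it on chromosome 20, were not. UBE2C (45812644 to 45816952, GRCh38) had 0.204 to 0.623 CPM with the IRF4 guide and 0.165 to 0.469 CPM with EV in that line. DNTTIP1, the gene before it, had 22.7 to 28.3 CPM with the IRF4 guide and 19.96 to 23.6 CPM with EV there. TNNC2, the next gene on the other side, had at most 0.204 CPM in every line. ACOT8, further on that side, had 14.8 to 15.6 CPM with the IRF4 guide and 13.7 to 16.6 CPM with EV. In H929 these genes had 45.6 to 48.1 CPM (DNTTIP1) and 26.8 to 30.4 CPM (ACOT8) with the IRF4 guide, and 37.3 to 43.2 CPM and 17.1 to 21.7 CPM with EV. What sets UBE2C apart in this line was not tested.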
